A study of Mus musculus with 2 samples.

Results

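The CCN family consists of 6 secreted proteins of the extracellular matrix: Ccn1 (older name Cyr61), Ccn2 (Ctgf), Ccn3 (Nov), Ccn4 (Wisp1), Ccn5 (Wisp2) and Ccn6 (Wisp3). Its members were taken as the probe sets whose annotation named only one of these genes under either symbol. This gave 11 of the 45037 probe sets that were not manufacturer's controls, 4 for Ccn1, 2 each for Ccn3 and Ccn4, and 1 each for Ccn2, Ccn5 and Ccn6. No probe set named a CCN gene together with another gene.

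The RNA came from primary osteoblasts of the skull caps of 5-day-old C57BL/6 mice, with no transgene or mutation given in the labels. Cells grown for 3 days in 10% serum were kept without serum overnight. They then spent 6 h in fresh serum-free medium at pH 7.2 with 1 mM phosphate (control) or 4 mM phosphate. The extra phosphate was added as buffered sodium phosphate, so sodium was added with it. With 1 array for each condition, neither a replicate error nor a test could be computed, and precision is limited by having only 2 arrays.

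CCN proteins are called matricellular because they sit in the matrix and signal to cells, while the matrix is not built from them. They bind integrins, heparan sulfate proteoglycans and growth factors, and are built from an IGFBP-like, a von Willebrand factor type C, a thrombospondin type 1 and a cysteine-knot module, the last of which Ccn5 lacks. Ccn1 and Ccn2 are textbook early-response genes, switched on by serum, by mechanical tension through the YAP and TAZ coactivators and by TGF-beta. In bone, Ccn1, Ccn2 and Ccn4 are known to favour osteoblast differentiation and Ccn3 to oppose it.

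Values are MAS5 signals, a linear intensity per probe set scaled to the same trimmed mean on both arrays. A signal above 21.5, the pooled median of both arrays, was taken as measured, and lower values were raised to this floor. By this rule 10 of the 11 CCN probe sets, covering 5 of the 6 genes, were measured, all of them on both arrays. Differences are log2 ratios of phosphate over control. Signals of different probe sets depend on their probes, so levels are not ranked between genes.

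The labelled cell type was checked first. Of 12 osteoblast markers, 7 had a probe set that named only them, and all 7 were above the floor on both arrays, among them Col1a1, the main bone collagen chain, at 10139 and 11889, and Sp7, an osteoblast transcription factor, at 1600 and 1223. Markers of other cells were present too. All 12 cartilage cell markers and all 12 macrophage markers were above the floor on both arrays, for example Col2a1, the cartilage collagen, at 4809 and 4364. Of 12 endothelial markers, 11 were not above the floor on either array.

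None of the 5 measured CCN genes differed 2-fold between 1 mM and 4 mM phosphate. Over all 12241 measured genes, 2.28% had a signal in phosphate at least 2-fold above the control and 2.92% one at least 2-fold below it, so a count of 0 among 5 genes is near this background and says little about the family as such. All 5 lay within 1.5-fold, as did 92.6% of the 4026 genes whose dimmer signal was above 400, a range that holds all 5. Over all measured genes, dim ones included, 19.4% differed by 1.5-fold or more. Ccn1, Ccn2 and Ccn4 had log2 ratios slightly above 0, and Ccn3 and Ccn5 had log2 ratios below 0. The median of the 5 was 0.08, beside −0.06 over all measured genes and −0.01 over the genes above 400. In bulk RNA, fewer cells that express a gene and less of its RNA per cell cannot be told apart.

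Ccn1 encodes a ligand of several integrins that promotes cell adhesion, migration and blood vessel growth. Its brightest probe set, 1416039_x_at, read 1365 in control and 1595 in phosphate, a log2 ratio of 0.23 or 1.17-fold. The second, 1438133_a_at, read 1001 and 1021, a log2 ratio of 0.03. Both bright probe sets thus placed Ccn1 close to the control.

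The other Ccn1 probe sets were dim and spread further. Probe set 1457823_at went from 63.7 to 81.3, a log2 ratio of 0.35, and 1442340_x_at from 43.5 to 86.7, a log2 ratio of 0.99. The latter was 1.99-fold higher, just short of the 2-fold line, and was the only CCN probe set beyond 1.5-fold. Both dim probe sets are annotated with the same expressed sequence tag, so they share a target, and the x in a name marks probes that can also match other transcripts. The same x stands in the names of the brightest probe sets of Ccn1 and Ccn3, which give those genes their values here. At such signals, probe sets of the same gene differed in log2 ratio with a standard deviation of 0.42, against 0.16 where the dimmer signal was above 400.

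The promoter of Ccn1 is shown because Ccn1 is the family's classic early-response gene and its motifs can be read beside its small ratio. RefSeq sequences for the region before the start were in the tables used here for Ccn1 and Ccn6. The 250 bases before the Ccn1 start, at chr3:145649986-145650235 on the minus strand of GRCm38.p6, are written 5′ to 3′ with motif matches in capitals.
Ccn1: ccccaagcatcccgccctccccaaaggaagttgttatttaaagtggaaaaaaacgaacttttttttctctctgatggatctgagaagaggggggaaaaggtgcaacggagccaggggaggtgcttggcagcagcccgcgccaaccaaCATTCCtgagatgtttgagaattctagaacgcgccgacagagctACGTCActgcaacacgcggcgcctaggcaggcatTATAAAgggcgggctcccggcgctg
The first capitals are a TEAD motif (GGAATG, here on the opposite strand), the letters bound by the partners of YAP and TAZ, starting 103 bases before the start. The next are a CRE core (TGACGT, also on the opposite strand), 59 bases before the start, of the kind bound by CREB and ATF factors. The last are a TATA box (TATAAA), 25 bases before the start. The matches do not overlap.

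Both strands were searched in 32851 promoter windows of this length. The TEAD letters occurred in 12.6% of them, the CRE core in 6.47% and the TATA letters in 12.4%. The AP-1 motif (TGANTCA), found in 6.75% of windows, and the CArG box bound by SRF, found in 1.47%, had no match in this Ccn1 window. In the Ccn6 window none of the 5 motifs matched. A match is a description of letters and not evidence of binding, and a missing match says nothing of sites farther away.

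Ccn2 encodes connective tissue growth factor, a matrix protein that cooperates with TGF-beta in fibrous tissue and in cartilage. Its single probe set, 1416953_at, read 10084 in control and 11327 in phosphate, a log2 ratio of 0.17 or 1.12-fold. Of all measured genes, 65.8% had a larger log2 ratio in size, as had 52.7% of the genes with a dimmer signal above 400. Quantile normalization, which forces both arrays to the same distribution of signals, gave −0.02 for Ccn2, and a loess correction of the ratio on signal gave 0.02, so the direction depended on the scaling.

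Ccn4 encodes a Wnt-inducible protein of the osteoblast lineage. Its probe set 1448593_at read 2171 and 2293, a log2 ratio of 0.08. The other, 1448594_at, read 1868 and 2142, a log2 ratio of 0.20. Both were slightly brighter in phosphate, by 1.06-fold and 1.15-fold, and 83.3% of measured genes had a larger ratio in size than the first.

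Ccn3 encodes a protein that restrains proliferation and opposes BMP signalling in osteoblasts. Probe set 1426852_x_at read 2007 in control and 1612 in phosphate, a log2 ratio of −0.32 or 1.24-fold lower. Probe set 1426851_a_at read 1442 and 1275, a log2 ratio of −0.18. Both pointed the same way, and they are annotated with the same transcript.

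Ccn5 encodes the short family member without the cysteine-knot module. Its single probe set, 1419015_at, read 1046 in control and 811 in phosphate. The log2 ratio of −0.37, 1.29-fold lower, was the largest in size among the 5 genes, and still 36.8% of all measured genes and 20.1% of the bright ones had a larger one. Ccn6, whose human counterpart is mutated in a hereditary cartilage disease, read 6.37 and 6.75 on 1444050_at, not above the floor on either array, so no ratio is given.

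**Figure D1:**
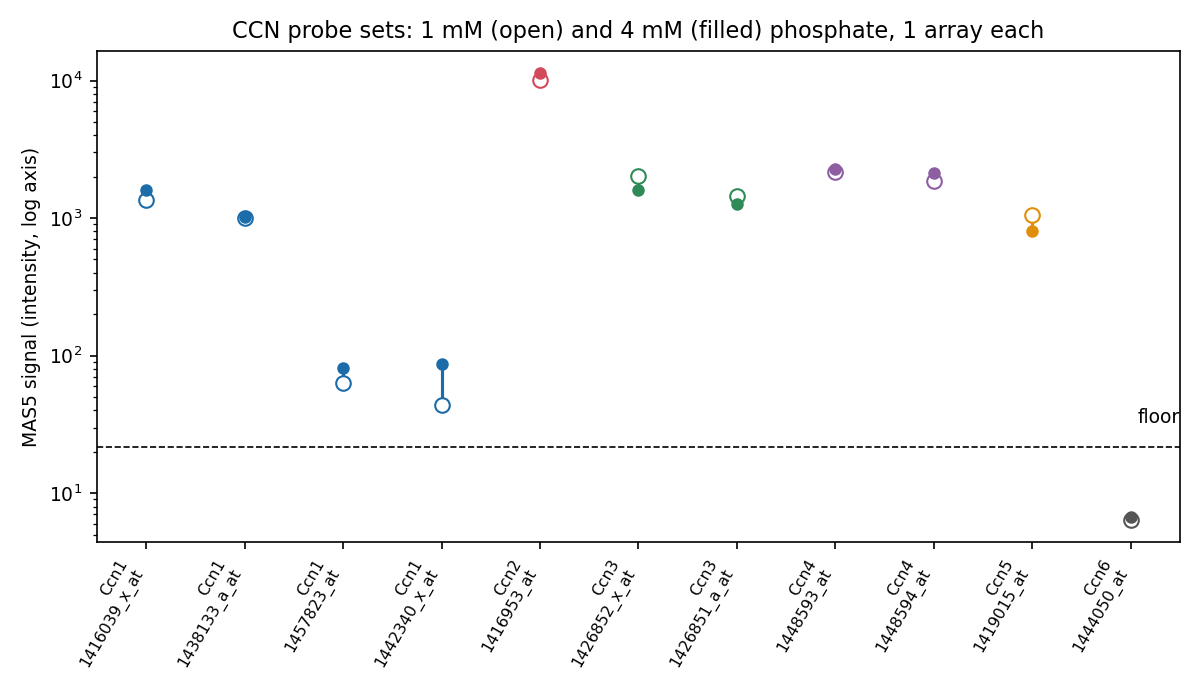
MAS5 signals (log axis) of the 11 CCN probe sets with 1 mM phosphate (open circles) and 4 mM phosphate (filled circles), 1 array each; the dashed line is the floor of 21.5. The open and filled circles nearly coincide except for the dim Ccn1 probe set 1442340_x_at, at 43.5 and 86.7, and the Ccn6 probe set lies under the floor.

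In order of log2 ratio the genes ran Ccn5, Ccn3, Ccn4, Ccn2, Ccn1. The only yardstick was technical, the standard deviation of 0.16 between log2 ratios of probe sets of one gene at these signals. It holds no variation between cultures and no error that all probe sets of a gene share, such as one from labelling or scaling. For a difference between 2 ratios, 2 such standard deviations come to 0.46. None of the 4 neighbouring pairs differed by more than this, the widest gap being 0.39 between Ccn3 and Ccn4. Of all 10 pairs, 4 exceeded it, each of Ccn5 and Ccn3 against each of Ccn1 and Ccn2, with differences from 0.48 to 0.59. The pairs with Ccn2, and that of Ccn3 with Ccn1, depended on the processing. With quantile normalization Ccn2 was at −0.02, Ccn3 at −0.33 and Ccn5 at −0.37, so the pairs with Ccn2 fell under 0.46. Those with Ccn1, at 0.22, stayed past it. On the second brightest probe sets Ccn1 was at 0.03 and Ccn3 at −0.18, a gap also under 0.46. Ccn5 has no second probe set, so that setting gave no value for its pair with Ccn1.

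Taken singly, the ratio of Ccn5 was 2.28 technical standard deviations from 0, that of Ccn3 1.96, Ccn2 1.04 and Ccn4 0.49, with Ccn1 between Ccn2 and Ccn3. As the shared errors are not in this yardstick, these multiples are no test of a difference from 0. Of the 10 measured CCN probe sets, 7 had log2 ratios above 0 and 3 below, and none was 2-fold different, whereas over all 24159 measured probe sets 2.77% were 2-fold or more above the control and 2.50% were 2-fold or more below it. The signs depend on the scaling. With the poly-A spikes, RNAs added before labelling, set to equal signal, the log2 ratios of genes well above the floor moved by −0.46 and all 5 CCN genes lay below 0, from −0.83 for Ccn5 to −0.24 for Ccn1. Under that setting 129 measured genes in all were 2-fold higher and 1561 were 2-fold lower, where the scaling as deposited gave 279 and 358.

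**Figure D2:**
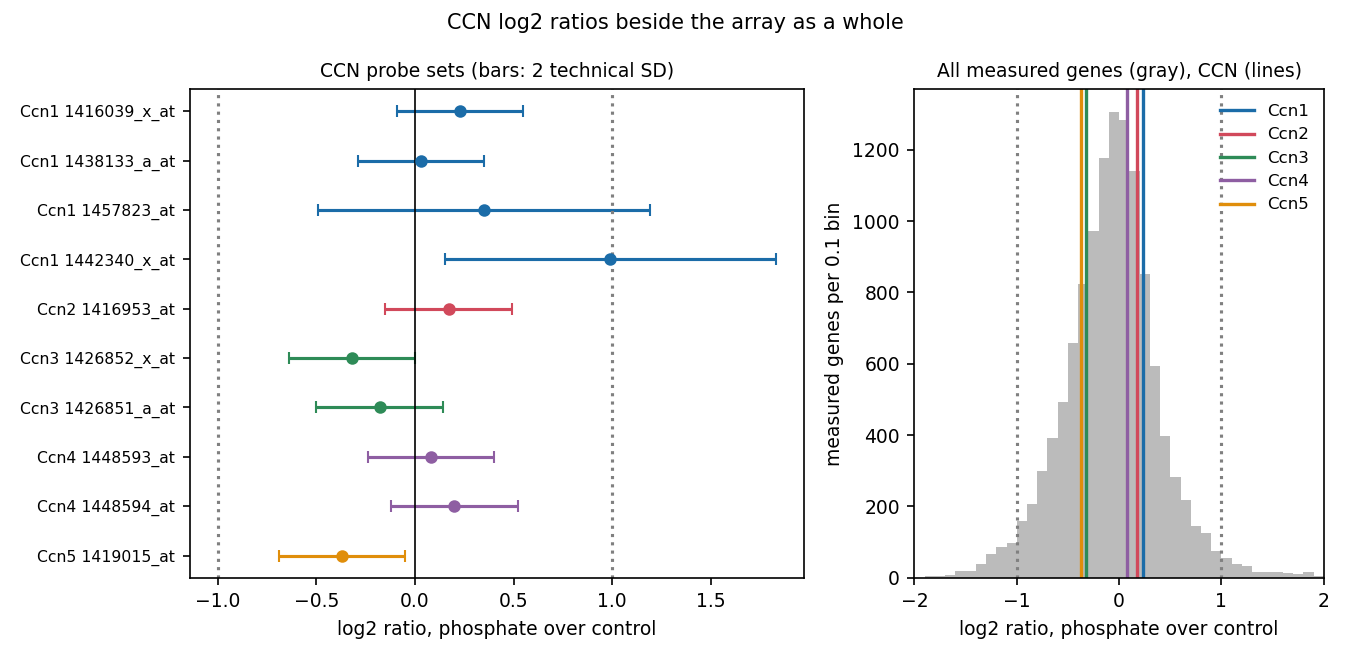
Left, log2 ratio of phosphate over control for the 10 measured CCN probe sets, with bars of 2 technical standard deviations (between probe sets of the same gene at like signal). Right, the log2 ratios of all 12241 measured genes in gray, with lines at the 5 CCN genes; axis limits leave out the tails, and dotted lines mark 2-fold. The CCN genes lie between −0.37 and 0.23, inside the body of the distribution.

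The proteins through which CCN proteins act include integrins, proteoglycans and the LRP receptors. Of 16 measured genes of this kind, 3 were at least 2-fold higher in phosphate and none 2-fold lower, with a median of 0.11. Over all measured genes the shares were 2.28% and 2.92%, with a median of −0.06. The list was chosen with earlier results of these data known, so its count is no test of the list. Itgb3, the beta subunit of the vitronectin receptor, read 101 and 259.9, a log2 ratio of 1.37. Sdc4, a heparan sulfate proteoglycan of focal adhesions, read 1845 and 3711, a log2 ratio of 1.01, with 1.54 on its other probe set. Tnfrsf11b, the decoy receptor osteoprotegerin, which Ccn2 is reported to bind, read 274 and 1035, a log2 ratio of 1.92. The other measured integrin chains were within 1.5-fold. Their log2 ratios were 0.31 for Itgav, 0.22 for Itga5, 0.16 for Itgb5, 0.11 for Itgb2, −0.02 for Itga6 and −0.09 for Itgb1. A dim probe set of Itgav gave 0.74. Lrp1, an endocytic receptor of Ccn2, was at −0.04, although a dim probe set of it gave 1.20. Fgfr2 had the lowest value at −0.67. The 2-fold call of Sdc4 ended under each other scaling, since quantile normalization gave 0.97 and the loess correction 0.98. Setting the poly-A spikes equal gave 0.54 for Sdc4 and 0.90 for Itgb3.

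Upstream of Ccn1 and Ccn2, the Hippo pathway had no gene past 2-fold. Of 17 measured members none was 2-fold higher or lower, and 16 lay within 1.5-fold, with a median of 0.11. Over all measured genes, 2.28% were 2-fold higher, 2.92% 2-fold lower and 80.6% within 1.5-fold. A count of 0 among 17 is near this background and says little about the pathway as such. The coactivator genes Yap1 and Wwtr1 (which encodes TAZ) read 1561 and 1745, and 2484 and 3186, log2 ratios of 0.16 and 0.36. Their dimmer probe sets gave larger ratios, 0.81 for Yap1 and 0.70 and 0.84 for Wwtr1. The DNA-binding partner Tead1 was at 0.22, and the dim Tead3 went from 48.8 to 93.5, a log2 ratio of 0.94. Amot, an inhibitor of YAP, was the lowest at −0.56, with 0.15 on a dim probe set.

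Other genes listed as YAP and TAZ targets went both ways. Of 19 measured, 1 reached 2-fold upward and 1 reached it downward, beside 2.28% and 2.92% of all measured genes, and the median was 0.02. Nt5e, the ectonucleotidase CD73, read 617 and 2260, a log2 ratio of 1.87. Ankrd1, a nuclear ankyrin-repeat protein often read together with Ccn1 and Ccn2 as a YAP target, read 58.5 and 25.4, a log2 ratio of −1.20, with −1.03 on its other probe set. Both Ankrd1 probe sets were dim, with the floor at 100 the gene gave no value, and with a pseudocount in place of the floor it was at −0.77. Amotl2, another common readout, was at 0.32, Ajuba at −0.21 and Axl at 0.40.

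Serum response factor drives cytoskeletal genes and, in many cells, Ccn1. Of 19 measured genes of this list none was 2-fold different, 16 lay within 1.5-fold, and the median was −0.07. Of all measured genes 2.28% were 2-fold higher, 2.92% 2-fold lower and 80.6% within 1.5-fold, so a count of 0 among 19 says little. Srf itself read 215 and 206, a log2 ratio of −0.07. The lowest were Myl9, a myosin light chain, which read 5390 and 3023 (−0.83), and Tgfb1i1, a focal adhesion adaptor, which read 381 and 217 (−0.81). The muscle-type actin gene Acta2 and the calponin-related Tagln were at −0.15 and −0.06.

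Genes of TGF-beta signalling, a classic inducer of Ccn2, had a median of 0.30, with 16 of 19 above 0, beside a median of −0.06 over all measured genes. Setting the poly-A spikes equal turned the list median to −0.16 and that of all measured genes to −0.51. In this list 1 gene was at least 2-fold higher and none 2-fold lower, beside 2.28% and 2.92% of all measured genes. Tgfbi, a TGF-beta-induced adhesion protein that is itself matricellular, read 648 and 1770, a log2 ratio of 1.45, with 1.16 to 1.58 on 3 other probe sets and 0.99 for the gene under the spike setting. The ligand genes differed among themselves, with Tgfb2 at 0.85, Tgfb1 at 0.17 and Tgfb3 at −0.92. The feedback genes Pmepa1, Smad7 and Skil were at 0.79, 0.70 and 0.64, with −0.04 on a dimmer probe set of Smad7.

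The CCN genes can be set beside the other matricellular proteins. Of 18 measured, only Tgfbi reached 2-fold upward and no gene downward, 15 lay within 1.5-fold and the median was −0.01. The shares of all measured genes were 2.28% upward, 2.92% downward and 80.6% within 1.5-fold. Thbs1, thrombospondin-1, an activator of latent TGF-beta, was the lowest, reading 5942 and 3244, a log2 ratio of −0.87, with −0.99 on its other probe set. Sparc (osteonectin) was at 0.34, Postn (periostin) at −0.15 and Comp at 0.09. The IGF-binding proteins share the first module of the CCN proteins, and none of 9 measured genes among them, the IGFs and their receptor was 2-fold different. A count of 0 among 9 is near the same background. Igfbp3 was highest at 0.63 and Igf1 lowest at −0.38.

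**Figure D3:**
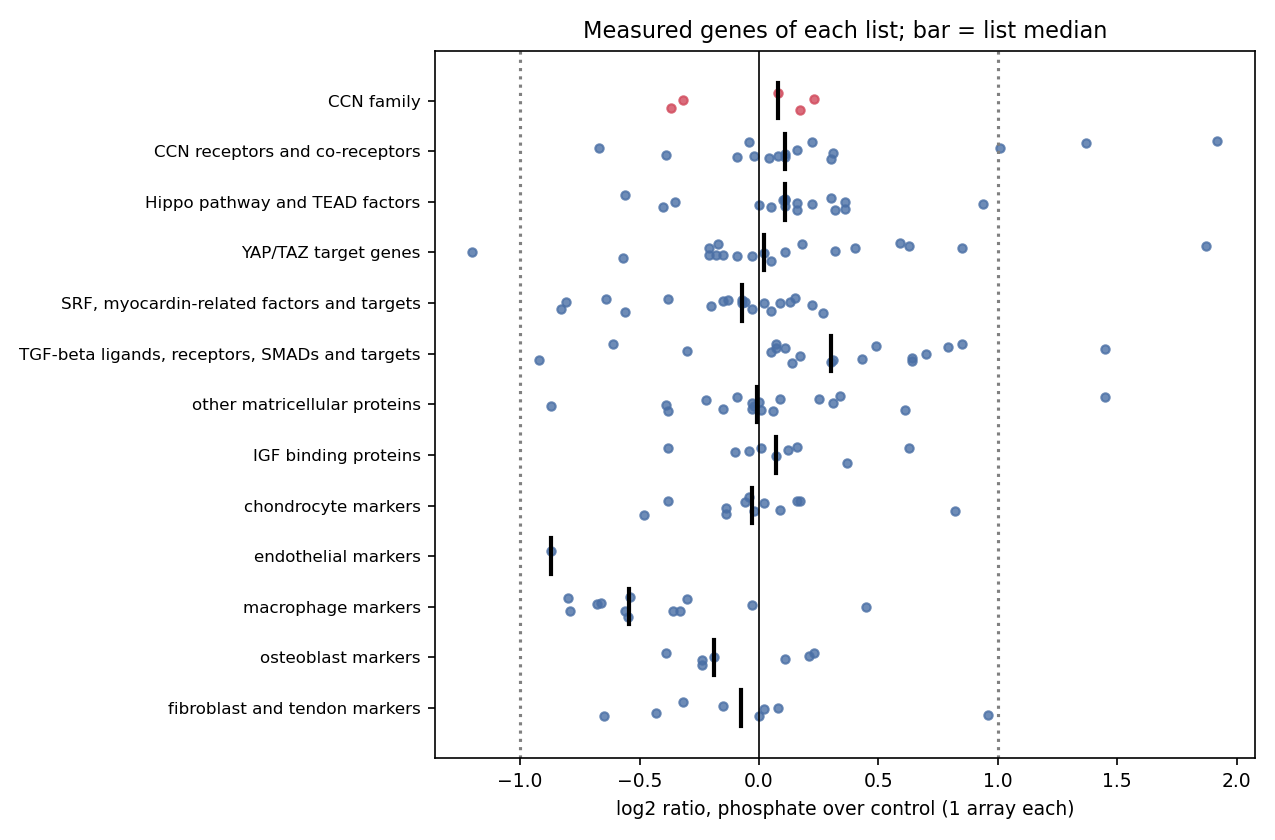
Log2 ratio of phosphate over control for each measured gene of the CCN family (red) and of the other lists (blue); the black bar is the list median, dotted lines mark 2-fold, vertical scatter has no meaning, and some genes stand in more than 1 list. The CCN genes span −0.37 to 0.23, while single members of the receptor, target and TGF-beta lists lie beyond 2-fold.

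Of the markers of other cells, those of macrophages were lower as a list, and no marker of any list was 2-fold different. Macrophage markers had a median of −0.55, beside −0.06 over all measured genes, and 11 of 12 were below 0. Their summed signal was 14956 in control and 12840 in phosphate. Markers of osteoblasts, the labelled cells, had a median of −0.19, with 4 of 7 below 0, and sums of 51704 and 55424. Cartilage markers had a median of −0.03 and sums of 22716 and 21219, and markers of fibroblasts and tendon a median of −0.08 and sums of 15948 and 15192. Within the last list Tnmd, the tendon membrane protein tenomodulin, read 3693 and 2957, a log2 ratio of −0.32, and Col14a1 was lowest with −0.65. The highest was Scx, the tendon transcription factor scleraxis, which read 43.4 and 84.3, a log2 ratio of 0.96, and 3 of 8 measured members were above 0. In the same list 1 marker was not above the floor on either array. The part of these cells in the lower Ccn3 and Ccn5 signals was not tested.

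**Figure D4:**
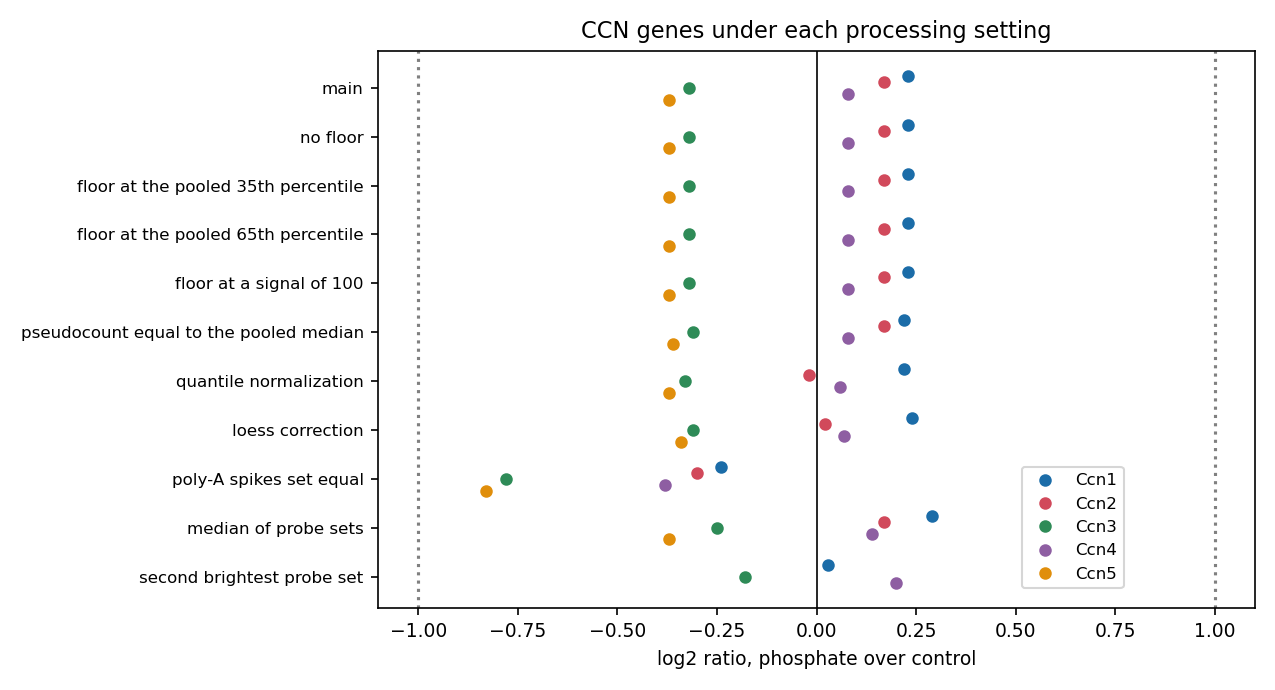
Log2 ratio of phosphate over control of the 5 measured CCN genes under the processing used (top row) and 10 alternatives; dotted lines mark 2-fold, and Ccn2 and Ccn5 have no second probe set. No point reaches 2-fold, and with the poly-A spikes set equal all 5 genes lie below 0.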

How the data were processed

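The authors deposited 1 linear intensity per probe set and array, made with MAS5 in GCOS 1.4, per the submitters' processing notes. After trimming 2% of probe sets at each end, the mean signal was 200.0 on both arrays, so total mRNA per cell cannot be compared. Detection calls were not used here. Of 45037 probe sets, 34945 named 1 gene, 932 several and 9160 none. Symbols were checked by Entrez identifier against RefSeq (GRCm38.p6), which held 34741 of them. A gene with several probe sets was represented by its brightest one (mean of log2 signals). With 1 array per group, genes were counted by size of ratio and not tested. The technical spread is the pooled standard deviation of log2 ratios between probe sets of 1 gene, both signals above the floor, by bin of the dimmer signal.

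The members and gene lists were chosen with earlier results of these data known. The rule for named genes took all CCN members and, from each list, the 3 highest and 3 lowest and any at least 2-fold different; not all genes it allows are described. Others in the lists (Itgav, Itga5, Itgb5, Itgb2, Itga6, Lrp1, Yap1, Tead1, Amotl2, Ajuba, Axl, Srf, Acta2, Tagln, Tgfb1, Smad7, Skil, Postn, Comp and Col2a1) were named for their known roles after their values were seen. Sequences are from RefSeq. Alternatives were 4 floors, a pseudocount, 3 scalings and 2 choices of probe set. The calculation was tested on simulated data. Python 3.11.15, pandas 2.3.3 and statsmodels 0.14.6 were used.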

Additional observations from a re-analysis of the deposited data

How the results depend on the processing

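None of the 5 measured CCN genes was 2-fold different under any of the 10 alternatives run. Of 48 values of single CCN genes, 41 moved by less than the technical standard deviation. Settings that changed only the floor could not move any of them, since every signal used was 811 or higher, above all floors. The median of probe sets could not move Ccn2 or Ccn5, which have a single probe set. The count of 41 therefore includes values that were fixed in advance and is no measure of stability under those settings. With the poly-A spikes set equal, Ccn1 was at −0.24, Ccn2 at −0.30, Ccn3 at −0.78, Ccn4 at −0.38 and Ccn5 at −0.83, beside a median of −0.51 over all genes, against −0.06 before. Quantile normalization gave −0.02 for Ccn2, and the second brightest probe set gave 0.03 for Ccn1. Apart from the spike setting, Ccn3 lay between −0.33 and −0.18 and Ccn5 between −0.37 and −0.34.

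Of the genes in the other lists, 6 were 2-fold different, 5 higher and 1 lower. Without a floor the count was 13 (8 higher, 5 lower), with the second brightest probe set 10 (8 and 2), and with the spikes set equal 22 (2 and 20). Counts over all measured genes moved too. As deposited they were 279 higher and 358 lower of 12241, and without a floor 2126 and 1841 of 18193. With the second brightest probe set they were 154 and 134 of 5617, and with the spikes set equal 129 and 1561 of 11854. No gene of the other lists was 2-fold lower (0) under a floor raised to the 65th percentile or to 100, or with the pseudocount. Ankrd1, the lower gene of the main count, was not above either raised floor and so gave no value there. The pseudocount shrank its ratio to −0.77. The spike setting lowered every phosphate signal by the same log2 shift of −0.46. Removing the floor could change only ratios of genes with a signal below 21.5, and let in genes not measured before. For the remaining settings the cause was not tested. No paired analysis was possible because each group had 1 array.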

Other observations

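Of 5 other early-response genes, chosen after their values were seen, 4 had log2 ratios of 2.21 or more on the same arrays, where Ccn1 and Ccn2 had 0.23 and 0.17. Over all measured genes 2.28% were at least 2-fold higher. Genes picked this way do not show how early-response genes differed as a class. Fos, a subunit of the AP-1 transcription factor, read 303 in control and 1829 in phosphate, a log2 ratio of 2.59. Egr1, a zinc finger transcription factor induced through SRF and its partners, read 770.0 and 3840, a log2 ratio of 2.32. Dusp1, a phosphatase of MAP kinases, and Ier3, a regulator of cell survival, were both at 2.21. Myc, the growth-promoting transcription factor, read 355 and 414, a log2 ratio of 0.22. Only 1 time point, 6 h, was measured, so earlier values of Ccn1 and Ccn2 are not known from these data.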
